A study of Homo sapiens with 16 samples.

Results

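The 6 arrays of hypoxia-resistant myeloma sublines measured at low oxygen were compared between cell lines: U266-HR on 2 arrays against RPMI8226-HR and KMS-11-HR on 2 arrays each. They are 6 of the 16 arrays of the series, chosen by their labels and not by any measured value. U266, RPMI8226 and KMS-11 are established lines from patients with multiple myeloma, and HR is the submitters' name for sublines resistant to hypoxia. All HR cells had been kept for 24 hours at 1% oxygen, and the matching parental lines, on 6 more arrays, for 24 hours at 20% oxygen. Since no HR cells were measured at 20% oxygen and no parental cells at 1%, resistance and the low oxygen of that day cannot be told apart in any change from parental to HR cells. Each subline is compared as it stands, so U266-HR is 1 resistant subline against 2 others. The labels number the arrays of a group as cells but do not state that they were grown apart, so p-values reflect only how far these arrays scatter, and that scatter may be technical.

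Multiple myeloma is a cancer of plasma cells, the antibody-secreting end stage of the B cell lineage. Most myelomas carry a lasting early lesion that switches on a D-type cyclin, directly or through a transcription factor such as MAF, and lines keep the mark of that lesion in culture. Cells short of oxygen stabilise the HIF transcription factors, which bind a short element in the promoters or enhancers of their targets and raise glycolysis, iron and oxygen handling and survival genes. The comparison asks which differences between the lines were still present among resistant cells and which had become smaller than in the parental lines.

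Values are log2 intensities of 1 probe set per gene, and 12639 genes that were above the table's median of 6.27 in at least 2 arrays were tested. The line difference is U266 minus the equally weighted mean of RPMI8226 and KMS-11, so a positive value means higher in U266. The interaction is the HR difference minus the parental difference of the same gene. Each was tested with limma over all 16 arrays, with Benjamini-Hochberg adjustment over all genes and a threshold of 0.05, and 2-fold means a difference of at least 1 on the log2 scale. Array medians lay between 6.22 and 6.34. Arrays of 1 HR group correlated at 0.996 across probe sets, U266-HR with the other HR lines at 0.919 to 0.943, and RPMI8226-HR with KMS-11-HR at 0.940 to 0.941. The correlations are descriptions of the arrays and carry no test.

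U266-HR differed from the mean of the other HR lines in most of the genes tested: 34.3% were called higher and 42.3% lower. With a 2-fold difference from the mean and a call the same way against each single line, 1109 genes were higher (8.77%) and 856 lower (6.77%). Of these, 217 and 145 differed at least 4-fold from each of the other HR lines, and 37 and 16 at least 16-fold. The arrays of U266-HR did not overlap with those of the other lines in 1109 of the 1109 and in 855 of the 856, where 26.2% and 30.3% of all genes tested were separated in that way. Since these genes were chosen by calls on the same arrays, their separation largely follows from the choice and adds no support. More genes were called 2-fold different from RPMI8226-HR, 3125 (24.7%), than from KMS-11-HR, 2154 (17%), and 83 genes were 2-fold higher than one and 2-fold lower than the other.

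The 10 genes most raised in U266-HR against each of the other lines included 3 germline antigens, and the 10 most lowered included several membrane proteins. In RNA from whole cultures, fewer cells with a transcript and less of it per cell cannot be told apart. MAGEB2, a cancer-testis antigen whose normal expression is in the testis, read 10.12 and 9.97 in U266-HR, 3.86 and 4.32 in RPMI8226-HR and 3.93 and 4.07 in KMS-11-HR. U266-HR was 64.1-fold above the mean of the others (adjusted p = 1.9e-13 in limma), and parental U266 had been 50.2-fold above. PAGE2 and PAGE2B, members of another germline antigen family on the X chromosome with near-identical copies that probes may not separate, differed by 5.75 and 6.01. LINC00221, a long non-coding RNA, differed by 6.07, GSTP1, which conjugates glutathione to toxic compounds, by 5.29, SH2D1A, a lymphocyte signalling adaptor, by 5.08, and NEB, the giant protein of the muscle thin filament, by 5.38. CCL3, a chemokine that myeloma cells can secrete and that drives bone-resorbing osteoclasts, differed by 5.67, EDNRB, an endothelin receptor, by 4.94 and ZNF730, a zinc finger gene, by 5.21.

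At the other end, DSG2, a cadherin of desmosomes, read 3.84 and 3.66 in U266-HR, against 9.54 and 9.70 in RPMI8226-HR and 9.58 and 9.59 in KMS-11-HR. The difference was -5.85 ± 0.07 (SE, as after every ± sign), and it had been -6.03 in parental cells, so that U266 was dim for DSG2 under both conditions. NRCAM, a neuronal adhesion molecule, differed by -6.01, APP, the amyloid precursor protein, by -5.83 and THEMIS, a lymphocyte signalling protein, by -6.08. SLC38A5, an amino acid transporter, differed by -5.41, MGST1, a microsomal glutathione transferase, by -6.11, and CLIC2, a chloride channel family protein, by -5.06. ARHGAP15, a Rac-inactivating protein, differed by -4.85, EMP2, a tetraspan membrane protein, by -4.81 and CERS6, a ceramide synthase, by -4.88. Of these 20 genes, 13 had an interaction that was not called, while ZNF730, NRCAM, APP and EMP2 differed more in HR than in parental cells and CCL3, NEB and EDNRB less. The interaction of CCL3 was no longer called without either U266 array of either condition or without KMS-11-HR array 1 (adjusted p = 0.053 to 0.090 in limma). That of NEB was not called without either parental U266 array or without U266-HR array 1 (adjusted p = 0.0505 to 0.104 in limma).

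**Figure D1:**
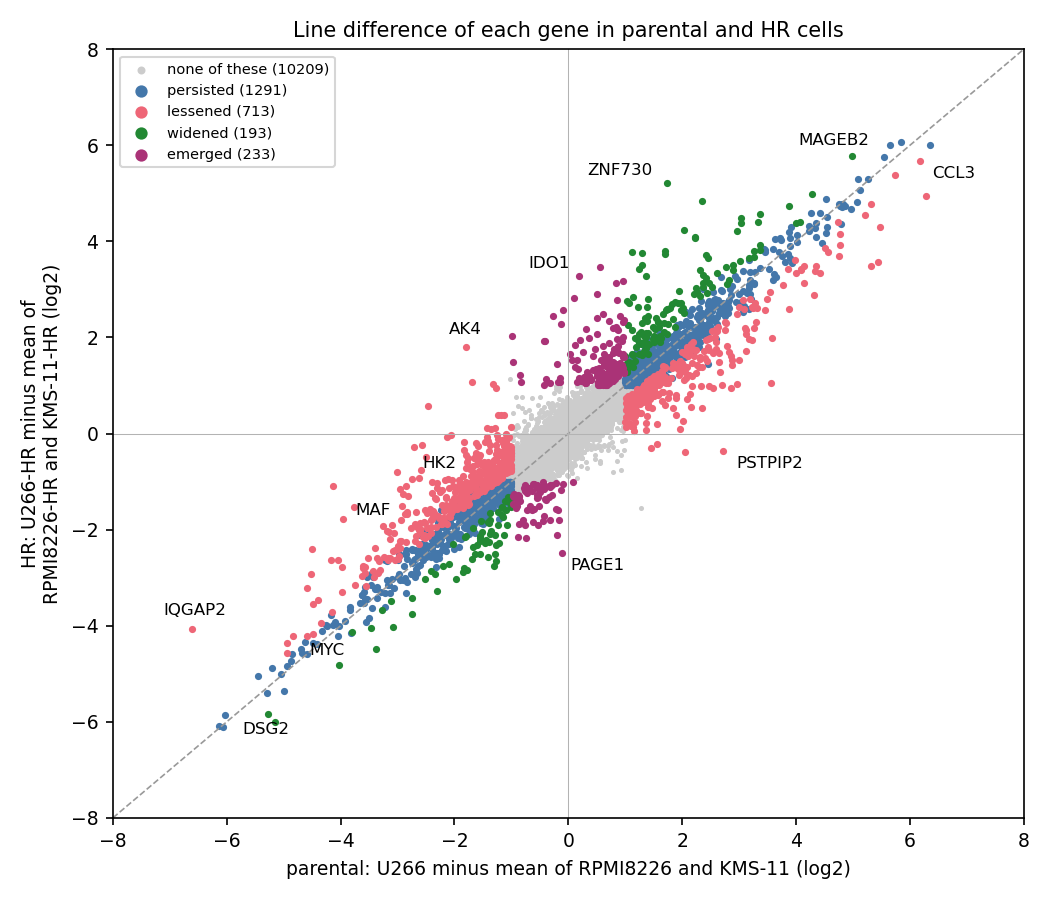
Each point is 1 of the 12639 genes, with the parental line difference on the x axis and the HR line difference on the y axis, both in log2, and the dashed line marks equal differences. Points follow the line closely (r = 0.930 across genes, which are not independent), and 713 lessened genes lie between the line and 0 on the y axis or beyond it, with AK4 and PSTPIP2 on the other side of 0.

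Of the 2419 genes that differed at least 2-fold between the parental lines (19.1% of those tested), 1839, or 76.0%, were called 2-fold the same way among the HR lines. A parental difference was counted as persisted where the HR difference was also 2-fold the same way and the interaction was not called, as lessened where the interaction was called and the HR difference was smaller, and as widened where it was called and the difference had grown. By these rules 1291 persisted (53.4%), 713 lessened (29.5%) and 193 widened (7.98%), which are 10.2%, 5.64% and 1.53% of all genes tested, and 220 fell under 2-fold without a called interaction. A missing call does not show that a difference stayed the same. The 95% interval of the interaction lay within 0.5 either way for 842 of the 1291 persisting genes and within 1 for 1273.

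Shrinkage was seen from the parental side and not from the HR side. The median ratio of the HR to the parental difference was 0.897 over the 2419 parental differences, 0.931 where U266 was higher and 0.860 where it was lower. Starting instead from the 2232 genes that were 2-fold different among HR lines (17.7%), 82.4% had been 2-fold the same way in parental cells and the median ratio of the parental to the HR difference was 1.00. The 2419 genes were picked for a large parental difference, which can by itself lower their ratio. The ratio 0.897 is therefore a description and not a measure of convergence, and the part of that choice in it was not tested. Over all genes tested, the standard deviation of the line difference was 0.980 in parental and 0.945 in HR cells.

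Among the 713 lessened genes, 355 were still 2-fold different the same way in HR cells, 320 were called the same way under 2-fold, 25 were not called and 13 were called the opposite way. In 136 the lessening itself was at least 2-fold. Where U266 had been higher (299 genes), its own change from parental to HR cells was called toward the others in 220, that of RPMI8226 in 125 and that of KMS-11 in 26. Where U266 had been lower (414 genes), the counts were 233, 208 and 91. These counts use the same arrays as the interaction and describe which line moved. The interaction holds the U266 change in full but only the mean of the other lines' changes, so genes chosen by it favour U266. As background, the change from parental to HR cells was called in 18.1% of all genes in U266, 26% in RPMI8226 and 8.27% in KMS-11.

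Of 10 myeloma translocation and cyclin D genes tested, 2 were called higher and 7 lower in U266-HR. Of the 10, 3 persisted and 4 lessened, and the interaction was called higher in 5 and lower in 0. Of all genes tested 10.2% persisted and 5.64% lessened, and the interaction was called higher in 13.2% and lower in 8.05%. CCND1, FGFR3 and MYCL persisted, and MAF, MYC, MYCN and CCND3 lessened. CCND1, which encodes cyclin D1, read 10.67 and 10.61 in U266-HR, 6.86 and 6.89 in RPMI8226-HR and 6.35 and 6.52 in KMS-11-HR. Both U266-HR arrays were far above the others, with a difference of 3.99 ± 0.06 (15.9-fold, adjusted p = 1.9e-14 in limma) and an interaction of -0.03 ± 0.09. MYC, the growth-driving transcription factor, was low in U266-HR at 7.19 and 7.28, against 11.41 and 11.51 in RPMI8226-HR and 11.48 and 11.43 in KMS-11-HR. Its difference lessened from -4.84 in parental cells, where U266 read 6.67 and 6.71, to -4.22 ± 0.05, with a called interaction of 0.62. MYCL, a MYC family member, was high in U266-HR instead, at 8.58 and 8.91 against 6.46 and 6.49 in RPMI8226-HR and 6.15 and 5.80 in KMS-11-HR. MYCN, the third member, was high in KMS-11-HR, at 10.04 and 10.36, while U266-HR read 5.42 and 5.59, and its difference lessened from -3.24 to -2.56.

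FGFR3, the receptor tyrosine kinase switched on by a translocation in some myelomas, read 10.87 and 10.63 in KMS-11-HR and lay between 6.26 and 6.71 in the other HR arrays. Its difference of -2.45 is therefore carried by KMS-11. NSD2, the histone methyltransferase gene at the same translocation, showed the same pattern, at 9.58 and 9.55 in KMS-11-HR against 7.93 and 7.92 in U266-HR and 7.77 and 7.65 in RPMI8226-HR. RB1, the retinoblastoma tumour suppressor, read 7.91 in both U266-HR arrays, 10.27 and 10.32 in RPMI8226-HR and 9.24 and 9.28 in KMS-11-HR, a difference of -1.87 that had been -2.61 in parental cells. KDM6A, a histone demethylase often lost in myeloma, was dim in RPMI8226-HR, at 4.05 and 4.19, and read 8.38 in both U266-HR arrays and 8.99 and 9.12 in KMS-11-HR.

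The difference of MAF lessened, as did those of 3 of the 6 MAF targets tested, ITGB7, DEPTOR and CX3CR1, while NUAK1 persisted. Whether MAF had a part in the change of its targets was not tested. MAF, a transcription factor that a translocation switches on in some myelomas and that raises cyclin D2 and integrin β7, read 8.47 and 8.40 in U266-HR, 10.19 and 10.20 in RPMI8226-HR and 10.21 and 10.25 in KMS-11-HR. Parental U266 had read 6.27 and 6.26, and the other parental arrays between 10.12 and 10.31. The line difference went from -3.96 to -1.78, with an interaction of 2.18 ± 0.14 (adjusted p = 2.8e-07 in limma), and U266 was the line that moved, by 2.17. ITGB7, the integrin β7 chain that binds myeloma cells to stroma, went from a difference of -3.25 to -1.92, as U266 rose from 9.04 and 8.87 to 10.35 and 10.32. CCND2, encoding cyclin D2, read 11.56 and 11.52 in U266-HR, between RPMI8226-HR, with a mean of 12.08, and KMS-11-HR, at 11.03 and 11.04, and its difference of -0.02 was not called, where the parental one had been -0.74.

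Of the 6 MAF targets tested, 5 were called lower and 0 higher in U266-HR, with a median difference of -1.64, against 6 lower and a median of -2.59 in parental cells and a median near -0.09 over all genes in both. The interaction was called higher in 4 of the 6, where 13.2% of all genes were. DEPTOR, an mTOR inhibitor, went from -2.33 to -1.36 as RPMI8226 fell by 1.32. NUAK1, an AMPK-related kinase, kept a difference of -3.32 without a called interaction, and CX3CR1, a chemokine receptor high in RPMI8226 alone, read 11.28 and 11.33 there and 4.93 and 4.71 in U266-HR. The difference of CX3CR1 went from -3.58 to -2.90, with U266 below the filter level under both conditions.

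**Figure D2:**
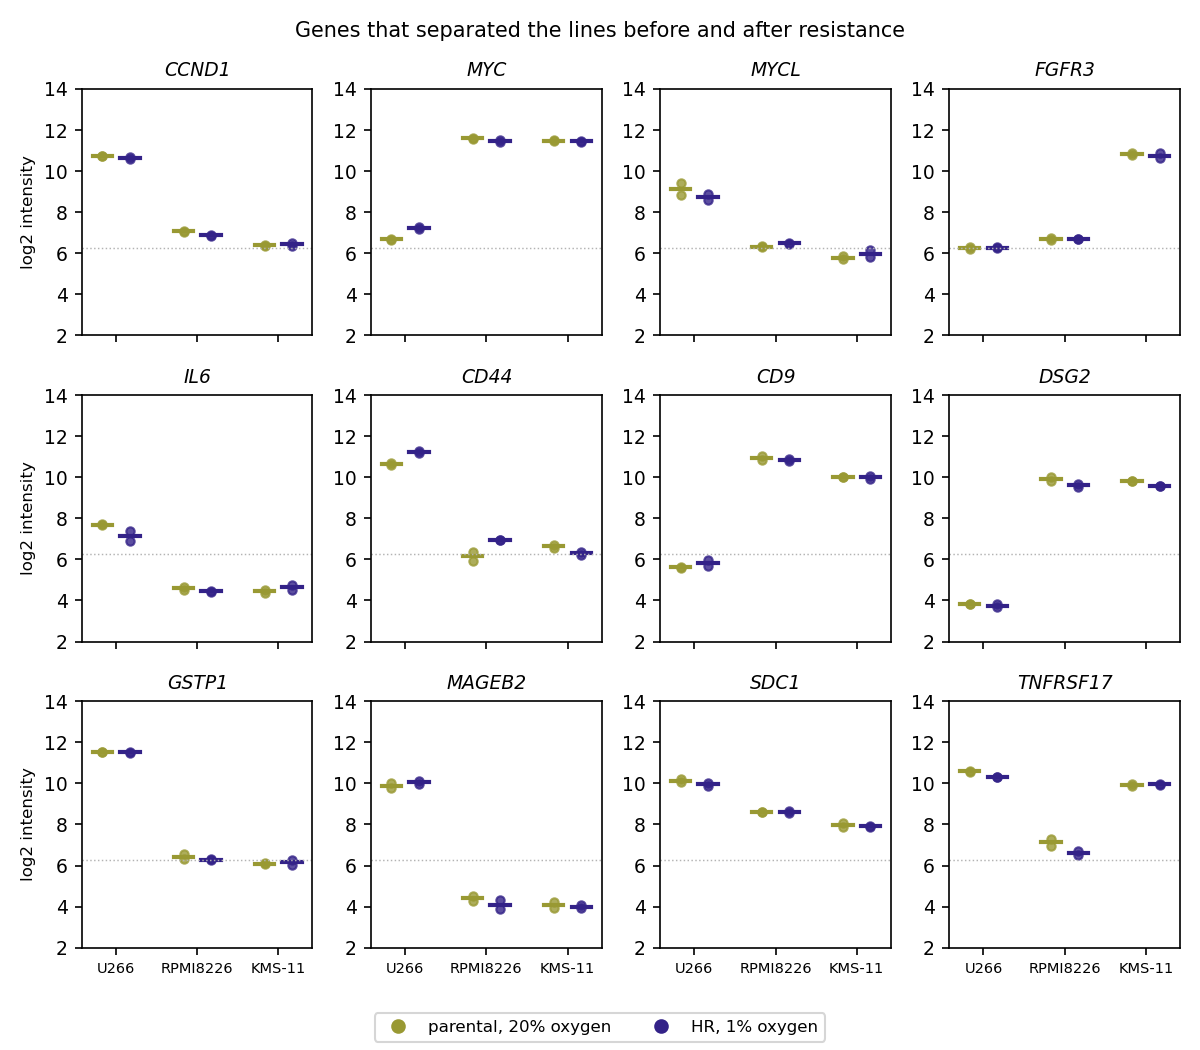
Log2 intensity of 12 genes in each parental (olive) and HR (indigo) array of U266, RPMI8226 and KMS-11. Points are arrays, bars are means of 2 arrays and the dotted line is the filter level of 6.27. CCND1, MYCL, IL6, CD44, GSTP1, MAGEB2 and SDC1 are highest in U266 under both conditions, and MYC, CD9 and DSG2 lowest, while FGFR3 is high in KMS-11 and TNFRSF17 low in RPMI8226.

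Surface molecules by which plasma cells are recognised differed from line to line. Of the 17 plasma cell genes tested, 9 were called higher and 5 lower in U266-HR, with a median difference of 0.24. The general regulators differed little: IRF4 by -0.21, XBP1 by 0.24, and PRDM1, the third factor of plasma cell identity, by 0.09, which was not called. SDC1, the syndecan CD138 that marks plasma cells, read 10.04 and 9.86 in U266-HR, 8.65 and 8.57 in RPMI8226-HR and 7.91 and 7.89 in KMS-11-HR, and had differed by nearly as much in parental cells, 1.85 against 1.70. TNFRSF17, the receptor BCMA that is a target of myeloma therapy, was at 10.31 and 10.33 in U266-HR and 9.98 and 9.92 in KMS-11-HR but at 6.69 and 6.54 in RPMI8226-HR.

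SLAMF7, another surface target of myeloma antibodies, read 8.75 in both U266-HR arrays, 5.86 and 5.59 in RPMI8226-HR and 4.68 and 4.90 in KMS-11-HR. Its difference lessened from 5.32 to 3.49, since parental U266 had read 10.13 and 10.15, but U266-HR still lay above every array of the other lines. CD38, the ectoenzyme that daratumumab binds, was high in RPMI8226-HR, at 10.46 and 10.61, and read 5.63 and 5.81 in U266-HR and 5.46 and 5.66 in KMS-11-HR. RPMI8226 had read 9.04 and 8.99 in parental cells, and its rise widened the difference from -1.27 to -2.33. CD48, a SLAM family surface receptor, lessened from 2.97 to 1.04, as RPMI8226 rose from 6.36 and 6.29 to 9.43 and 9.62. B cell genes showed no common direction, with 5 of 16 higher and 6 lower. CR2, the complement receptor of mature B cells, read 4.10 and 4.21 in U266-HR, 4.70 and 4.66 in RPMI8226-HR and 9.48 and 9.50 in KMS-11-HR. It fell by 3.58 in RPMI8226.

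Of 31 adhesion and homing genes tested, 12 were called higher in U266-HR and 14 lower, shares near those of all genes. Of these 31 genes, 8 lessened, 6 persisted and 3 widened, where 5.64%, 10.2% and 1.53% of all genes tested did. CD44, the hyaluronan receptor, read 11.27 and 11.17 in U266-HR, 6.96 and 6.92 in RPMI8226-HR and 6.21 and 6.37 in KMS-11-HR, a difference of 4.60. CD9, a tetraspanin, was as low as CD44 was high, at 5.97 and 5.70 in U266-HR against 10.90 and 10.81 in RPMI8226-HR and 9.93 and 10.08 in KMS-11-HR. ITGA8, an integrin chain, differed by 4.27, and PECAM1, an endothelial and leukocyte adhesion molecule, by 3.81. Interactions of CD44, CD9 and ITGA8 were not called. THY1, a glycoprotein of stromal and nerve cells, read 9.72 and 9.78 in U266-HR, up from 7.34 and 7.43, and between 5.25 and 5.70 in the other HR arrays. Its difference widened from 2.04 to 4.25.

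U266 is known to make its own interleukin 6, the main growth factor of myeloma cells. IL6 read 6.88 and 7.39 in U266-HR and between 4.42 and 4.76 in the other HR arrays, a difference of 2.60 ± 0.13 against 3.17 in parental cells, with an interaction that was not called (adjusted p = 0.053 in limma). IL6R, its receptor, read 11.10 and 11.13 in U266-HR, 9.56 and 9.78 in RPMI8226-HR and 7.09 and 7.04 in KMS-11-HR. IL2RB, a receptor chain of interleukins 2 and 15, differed by 2.97 and had widened from 1.94. STAT5B, a transducer of these receptors, was lower by -1.45. Over the 27 genes of this signalling list, 12 were called higher and 12 lower. Of the 22 NF-kB factors and targets, 13 were called higher and 6 lower, with NFKBIA, the inhibitor that NF-kB itself induces, at a difference of 1.39, and TNFRSF1A, a tumour necrosis factor receptor, at -1.98.

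Cancer-testis antigens had the largest median difference of the lists in HR cells, and in parental cells the largest apart from the MAF targets. Of the 35 genes listed, 23 had a probe set with 1 symbol and 19 passed the filter and were tested. Of these 19, 18 were called higher and 1 lower in U266-HR, with a median difference of 2.74. In parental cells 16 were called higher and 0 lower, with a median of 2.33. A gene dim in the other lines can pass the filter through the U266 arrays, and a gene dim in every line is left out. Those left out had means of 3.92 to 5.04 in U266-HR. The counts and medians of this list are therefore partly set by the filter. No member lessened and 10 persisted, where 5.64% and 10.2% of all genes tested did. MAGEC1 read 10.04 and 9.81 in U266-HR and between 4.96 and 5.41 in the other HR arrays. SAGE1 had a mean of 7.98 in U266-HR against 3.17 to 3.46 in the other HR arrays. MAGEA4, MAGEA1, MAGEC2 and PASD1 differed by 3.73, 2.96, 2.74 and 3.55. These families have near-identical copies, so a probe set may read several of them.

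A few cancer-testis genes differed 2-fold in the resistant cells alone. SSX1 read 8.32 and 7.45 in U266-HR, and 5.07 and 5.12 in parental U266, so that its difference went from 0.83 to 3.13. CSAG1 rose in U266 from 7.29 and 7.16 to 8.73 and 8.77, and its difference from 0.91 to 2.44. PAGE1 rose in RPMI8226 instead, from 5.07 and 5.22 to 9.97 and 10.06. U266-HR read 4.69 and 4.75 and KMS-11-HR 4.41 and 4.37, so the difference of -2.48 stands against RPMI8226-HR.

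MHC class II genes, which present antigen to helper T cells, were called higher in U266-HR in 7 of 11 tested and lower in 2. Of the interactions 4 were called higher and 0 lower, 2 genes widened and 1 emerged, and 5 of the 11 had a smaller difference in HR than in parental cells. Over all genes tested the interaction was called higher in 13.2% and lower in 8.05%, and 1.53% widened and 1.84% emerged. HLA-DPA1 read 11.54 in both U266-HR arrays, 6.66 and 6.84 in RPMI8226-HR and 7.36 and 7.75 in KMS-11-HR. Its difference widened from 3.04 to 4.39, as U266 rose by 0.57, RPMI8226 fell by 0.90 and KMS-11 fell by 0.67. HLA-DPB1 widened from 1.41 to 2.44 and HLA-DMA, which loads peptides, went from 0.86 to 1.78, while CIITA, the master regulator of the class, differed by -0.31. HLA genes differ in sequence between people, and the effect of such variants on these probes was not tested. Class I presentation genes differed less, with B2M, the invariant light chain, at 0.86 and TAP2, a peptide transporter chain, at -0.87.

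The interferon response held the most lessened genes of any list, 14. In parental cells 27 of the 33 genes tested were higher in U266 and 2 lower, with a median difference of 1.09, where 33.1% and 41.9% of all genes were. In HR cells 17 were higher and 8 lower, with a median of 0.21. The interaction was called lower in 21 and higher in 3, where 8.05% and 13.2% of all genes were. U266 moved: 22 of the 33 fell in it and 2 rose, against 5 and 5 in RPMI8226 and 1 and 1 in KMS-11. After a second quantile normalization of the table, the counts were 17 higher and 5 lower, and 3 higher and 21 lower for the interaction.

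IFIT1, which binds foreign RNA caps, read 4.66 and 4.88 in U266-HR, 5.46 and 5.53 in RPMI8226-HR and 4.55 and 5.05 in KMS-11-HR. In parental U266 it had been at 6.86 and 6.66, so the difference went from 2.06 to -0.38, and the latter call (adjusted p = 0.035 in limma) was lost without U266-HR array 1, either RPMI8226-HR array or KMS-11-HR array 2 (adjusted p = 0.054 to 0.23 in limma). IFIT3, of the same family, went from 1.96 to 0.10. MX1, a dynamin-like antiviral GTPase, lessened from 2.17 to 0.99, with U266 falling by 1.77 and RPMI8226 by 1.22.

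The oligoadenylate synthetases, which activate RNA decay on sensing double-stranded RNA, lessened but stayed far apart. OAS1 read 10.21 and 10.20 in U266-HR and between 6.61 and 7.12 in the other HR arrays, a difference of 3.35 after 4.01. OAS3 and OAS2 went from 4.33 to 3.38 and from 4.13 to 3.13. MX2, a relative of MX1, went the other way: it rose in U266 from 8.93 and 8.97 to 9.82 and 9.80, and its difference widened from 2.41 to 3.71. HERC5, which attaches the ISG15 modifier, differed by 2.46 after 2.28, with no called interaction.

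Most HIF targets rose in all 3 lines, and more of them moved up than down in U266 relative to the others. Of 34 tested, 31 rose from parental to HR cells in U266, 28 in RPMI8226 and 28 in KMS-11, and none fell in any of them. Over all genes tested the shares that rose were 9.68%, 10.7% and 2.44%, and those that fell 8.42%, 15.3% and 5.83%. In HR cells 22 were called higher in U266 and 5 lower, with a median difference of 0.36, against 16 and 12 and a median of 0.08 in parental cells. The interaction was called higher in 15 and lower in 5, where 13.2% and 8.05% of all genes were. BNIP3, a mitophagy receptor and a common marker of hypoxia, read 10.99 in both U266-HR arrays, 9.70 and 9.72 in RPMI8226-HR and 8.87 and 8.89 in KMS-11-HR. It had risen by 2.05, 1.67 and 2.05, so the line difference of 1.70 was already 1.51 in parental cells.

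VLDLR, a lipoprotein receptor, and BHLHE40, a transcriptional repressor, also kept their differences, 3.11 after 3.26 and 2.50 after 2.68. NDRG1, a stress-induced cytoplasmic protein, rose from 9.13 and 9.10 to 11.36 and 11.34 in U266, and its difference went from -0.42 to 0.40. EGLN3, the HIF prolyl hydroxylase that HIF itself induces, was uneven: 8.26 and 8.21 in U266-HR, 9.95 and 10.25 in RPMI8226-HR and 6.08 and 5.90 in KMS-11-HR. It rose by 2.33 in U266 and by 3.61 in RPMI8226, while its change of 0.10 in KMS-11 was not called.

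Glycolysis genes, many of them lower in parental U266, mostly drew closer to the other lines. The difference was smaller in size in HR than in parental cells in 15 of 20, and in 6652 of the 12639 genes tested. Of the 20, 4 lessened and 3 emerged, where 5.64% and 1.84% of all genes did. The list shares 4 genes with the HIF targets. In parental cells 5 of 20 were higher in U266 and 14 lower, with a median of -0.37, and in HR cells 6 were higher and 8 lower, with a median of 0.05. The interaction was called higher in 11 and lower in 1, where 13.2% and 8.05% of all genes were. HK2, the inducible hexokinase that commits glucose to glycolysis, read 9.48 and 9.44 in U266-HR, 9.40 and 9.37 in RPMI8226-HR and 10.13 and 10.08 in KMS-11-HR. Parental U266 had read 6.14 and 6.67, against 8.66 and 8.68 in RPMI8226 and 9.55 and 9.61 in KMS-11. Its difference went from -2.72 to -0.28, with an interaction of 2.43 ± 0.15 (adjusted p = 2.0e-07 in limma), and the small remaining difference was no longer called without either U266-HR array, RPMI8226-HR array 1 or KMS-11-HR array 1 (adjusted p = 0.052 to 0.12 in limma).

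PFKFB3, which makes the activator of phosphofructokinase, rose in U266 from 6.49 and 6.35 to 9.02 and 8.96, and its difference went from -1.40 to -0.15. FAM162A, a mitochondrial protein induced by hypoxia, rose by 1.34 in U266 and by 0.79 in KMS-11, and its change of 0.29 in RPMI8226 was not called. TPI1, triosephosphate isomerase, went from -1.68 to -0.89. HK1, the hexokinase of resting cells, stayed higher in U266, by 2.20 after 1.91. The glucose transporters parted. SLC2A1 lessened from -2.04 to -0.96, as U266 rose by 2.23, whereas SLC2A3 did not rise in U266, where it read 5.63 and 5.76, and rose by 1.82 in RPMI8226 and by 0.74 in KMS-11, so that its difference went from -0.74 to -2.18.

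HK2, PFKFB3 and FAM162A, whose HIF-related differences moved up in U266, are shown here with 60 bases of promoter from RefSeq (GRCh38.p14), because each window holds a core motif of the hypoxia response element. Capitals mark the letters ACGTG or GCGTG, or on the other strand CACGT or CACGC. The windows lie at chr2:74834052-74834111, chr10:6144726-6144785 and chr3:122384119-122384178, all on the plus strand and 75 to 16, 195 to 136 and 63 to 4 bases before the start of the gene.
HK2: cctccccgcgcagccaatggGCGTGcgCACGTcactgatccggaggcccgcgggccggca
PFKFB3: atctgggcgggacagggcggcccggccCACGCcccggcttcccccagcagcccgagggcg
FAM162A: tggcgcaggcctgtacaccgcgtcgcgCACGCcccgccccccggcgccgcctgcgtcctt
Either motif, on either strand and with overlapping matches allowed, was found in the 250 bases before the start of 31 of the 43 HIF target and glycolysis genes with a promoter in the table (72.1%). It was in 56.9% of the promoters of all genes tested and in 43.1% of all promoters of the table. Among the list genes with an interaction called higher it was in 15 of 21, or 71.4%, so the motif did not set these apart from the rest of the list. A match is a run of letters and not a bound site, and the motifs may lie elsewhere in genes without one here.

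On its brighter probe set AK4, a mitochondrial adenylate kinase induced by hypoxia, had the largest interaction among the lessened genes, 3.60. It read 10.21 and 10.25 in U266-HR, 9.74 and 9.84 in RPMI8226-HR and 7.05 and 7.08 in KMS-11-HR, after 5.17 and 4.72, 7.39 and 7.54, and a mean of 6.03 in parental cells of U266, RPMI8226 and KMS-11. The difference turned from -1.80 to 1.80, so AK4 counts as lessened by the rule although the size of its difference was nearly unchanged. The gene has a second, slightly dimmer probe set on the array, with differences of -0.32 and -0.04 and an interaction of 0.29. The turn to a higher value in U266-HR was therefore not seen on that probe set. Probe set positions were not checked, so either probe set may read a copy elsewhere, and which of them reads AK4 is not known.

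**Figure D3:**
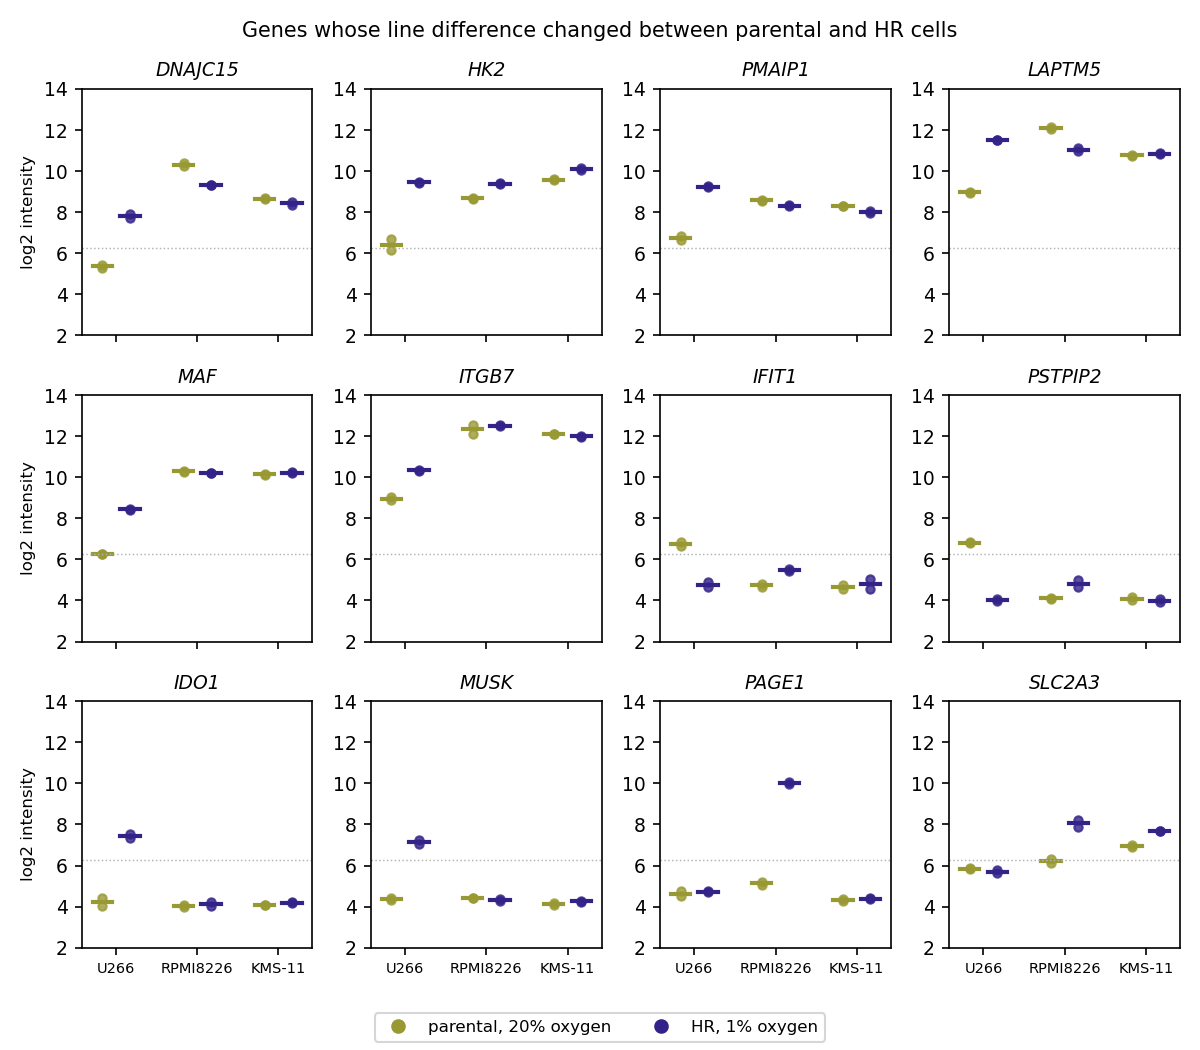
Log2 intensity of 12 genes whose line difference changed, in each parental (olive) and HR (indigo) array. Points are arrays, bars are means of 2 arrays and the dotted line is the filter level of 6.27. HK2, PMAIP1, LAPTM5, MAF and ITGB7 rose in U266, IFIT1 and PSTPIP2 fell in it, IDO1 and MUSK rose in it from the level of the other lines, and PAGE1 and SLC2A3 rose in RPMI8226.

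Other genes that lessened came from several functions. DNAJC15, a mitochondrial co-chaperone, went from -4.13 to -1.08, with U266 at 5.45 and 5.28 in parental and 7.70 and 7.90 in HR cells. LAPTM5, a lysosomal membrane protein of blood cells, rose in U266 from 8.99 and 8.95 to 11.52 and 11.51, fell by 1.05 in RPMI8226, and went from -2.46 to 0.57. PMAIP1, which encodes the death-promoting BCL2 family protein NOXA, rose from 6.86 and 6.65 to 9.23 and 9.27 in U266, where the other HR arrays read 7.98 to 8.33, and its difference turned from -1.69 to 1.08. IQGAP2, a cytoskeletal scaffold, lessened from -6.61 to -4.07 and remained among the largest differences.

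In the other direction, PSTPIP2, a membrane-bending protein of myeloid cells, fell in U266 from 6.79 and 6.85 to 4.09 and 3.98, below the 4.64 and 4.98 of RPMI8226-HR, and its difference went from 2.73 to -0.37. ALLC, an allantoicase-like gene, fell in U266 from a mean of 7.17 to 5.48 and 5.36 and went from 2.86 to 0.94. SLCO2B1, an organic anion transporter, went from 3.57 to 1.04, since U266 fell by 1.17 and the other lines rose by 1.82 and 0.90. CHI3L1, a secreted chitinase-like protein, went from 5.45 to 3.57 as RPMI8226 rose from 7.36 and 7.25 to 10.20 and 9.96.

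Besides AK4 and PMAIP1, 3 genes were called 2-fold in opposite directions before and after, 5 in all (0.0396% of genes tested), and were named after their values were seen. For AK4 this holds on the brighter probe set only. QTMAN went from -1.02 to 1.13 and ZNF675 from -1.32 to 1.03, in both cases as U266 rose. RGS1, which damps chemokine receptor signals, went from 1.28 to -1.56, as it rose in RPMI8226 by 2.50 and in KMS-11 by 1.22 and fell in U266 by 0.98.

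Differences that emerged, being 2-fold in HR cells and under 2-fold in parental cells with a called interaction, numbered 233 (1.84% of genes tested), 164 higher and 69 lower in U266-HR. The interaction itself was at least 2-fold in 68 of the 233. The median parental difference was already 0.65 in the 164 and -0.60 in the 69. Of the 233 genes, 199 were called the same way against each other line. The change of U266 itself was called toward the emerged difference in 119 of the 164 and in 44 of the 69. In the 164, that of RPMI8226 was so called in 66 and that of KMS-11 in 19. U266 was the only line so called in 81 of the 164 and in 31 of the 69. IDO1, an enzyme that breaks down tryptophan and restrains T cells, read 7.51 and 7.34 in U266-HR and between 4.04 and 4.21 in the other HR arrays, with parental U266 at 4.44 and 4.04. The difference was 3.28 ± 0.10 (9.69-fold) after 0.18. MUSK, a receptor kinase of the nerve-muscle synapse, rose in U266 from 4.34 and 4.40 to 7.23 and 7.03, while the other arrays stayed between 4.07 and 4.44.

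CCN4, a secreted matrix protein and WNT target, rose from 5.84 and 5.78 to 8.20 and 8.54 in U266, and CNIH3, an AMPA receptor auxiliary protein, from 5.76 and 5.68 to 8.36 and 8.53. Their differences in HR cells were 2.56 and 2.45. ZNF729, a zinc finger gene, differed by 3.47 after 0.55, and rose in U266 by 2.23 while falling in RPMI8226 by 1.29. TENM3, a teneurin adhesion protein, rose in U266 from 6.37 and 6.40 to 9.29 and 9.34, close to the 9.52 and 9.46 of KMS-11-HR, so its difference of 2.03 is against RPMI8226-HR, at 5.03 and 5.10. Parental U266 already differed in TENM3 from each line, by 1.26 from RPMI8226 and by -3.22 from KMS-11, which left -0.98 against their mean. BCL2L1, encoding the survival protein BCL-XL, also emerged, from 0.96 to 1.66, and read 11.09 and 11.05 in U266-HR, 9.85 and 9.64 in RPMI8226-HR and 9.08 and 9.07 in KMS-11-HR. MCL1, the survival protein on which many myelomas depend, differed by 0.93 after 1.21.

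Of the 69 emerged genes that were lower in U266-HR, the change toward that difference was called in U266 for 44 and in RPMI8226 for 32, and in 21 (30.4%) the RPMI8226 change was called and that of U266 was not. CAPN6, a calpain family protein, read 8.99 and 9.09 in RPMI8226-HR after 5.51 and 5.70, and between 5.02 and 5.33 in the other HR arrays. IGFBP2, which binds insulin-like growth factors, read 9.43 and 10.03 in RPMI8226-HR and between 6.10 and 6.38 in the other HR arrays. DNAH11, a dynein of cilia, rose by 2.57 in RPMI8226 and by 0.73 in KMS-11. For TEX9, U266 fell from 7.94 and 7.89 to 6.43 and 6.12, to the level of KMS-11-HR at 6.40 and 6.52, and RPMI8226-HR stayed high at 9.27 and 9.28. Parental U266 already differed by -1.85 from RPMI8226 and by 1.48 from KMS-11 in TEX9, which left -0.18 against their mean.

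Cholesterol synthesis moved opposite ways in the lines. Of 17 genes tested, 10 were higher and 4 lower in parental U266, with a median of 0.28, and 4 were higher and 11 lower in U266-HR, with a median of -0.29. The interaction was called lower in 13 and higher in 0, where 8.05% and 13.2% of all genes were. From parental to HR cells 16 rose and 0 fell in RPMI8226, 12 fell and 0 rose in U266, and 8 fell and 0 rose in KMS-11. HMGCS1, which makes the precursor of mevalonate, read 9.73 and 9.72 in U266-HR, 11.64 and 11.81 in RPMI8226-HR and 8.27 and 8.32 in KMS-11-HR, and U266-HR thus lay between the others. Its difference went from 1.44 to -0.29. LSS, lanosterol synthase, read 8.26 and 8.45 in U266-HR after 9.41 and 9.31, and rose in RPMI8226 by 1.07, so that a difference of -1.56 emerged.

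DNA replication genes went from mostly lower to mostly higher in U266. In parental cells 6 of 25 were higher and 16 lower, with a median of -0.33, and in HR cells 15 were higher and 7 lower, with a median of 0.26. The interaction was called higher in 20 and lower in 0, where 13.2% and 8.05% of all genes were. From parental to HR cells 19 rose and 0 fell in U266, 0 rose and 20 fell in KMS-11, and 1 rose and 9 fell in RPMI8226. RRM2, a subunit of the enzyme that makes deoxynucleotides, read 10.88 and 10.89 in U266-HR, 9.22 and 9.20 in RPMI8226-HR and 9.69 and 9.78 in KMS-11-HR, a difference of 1.42 after 0.94. MCM2, part of the replicative helicase, went from -0.51 to 0.43, and CDC6, which loads that helicase, from -1.58 to -0.49.

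Of the 21 mitosis genes, 11 were higher and 2 lower in U266-HR, against 6 and 10 in parental cells. Their interaction was called higher in 14 and lower in 0, where 13.2% and 8.05% of all genes were. In RPMI8226 15 of them fell and in U266 5 rose. AURKA, a spindle kinase, went from -0.02 to 0.76, read 9.94 and 9.99 in U266-HR and 8.51 and 8.80 in RPMI8226-HR, and did not separate U266-HR widely from KMS-11-HR at 9.75 and 9.76. UBE2C, a ubiquitin-conjugating enzyme of mitotic exit, stayed lower in U266-HR, by -1.49 after -2.06.

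**Figure D4:**
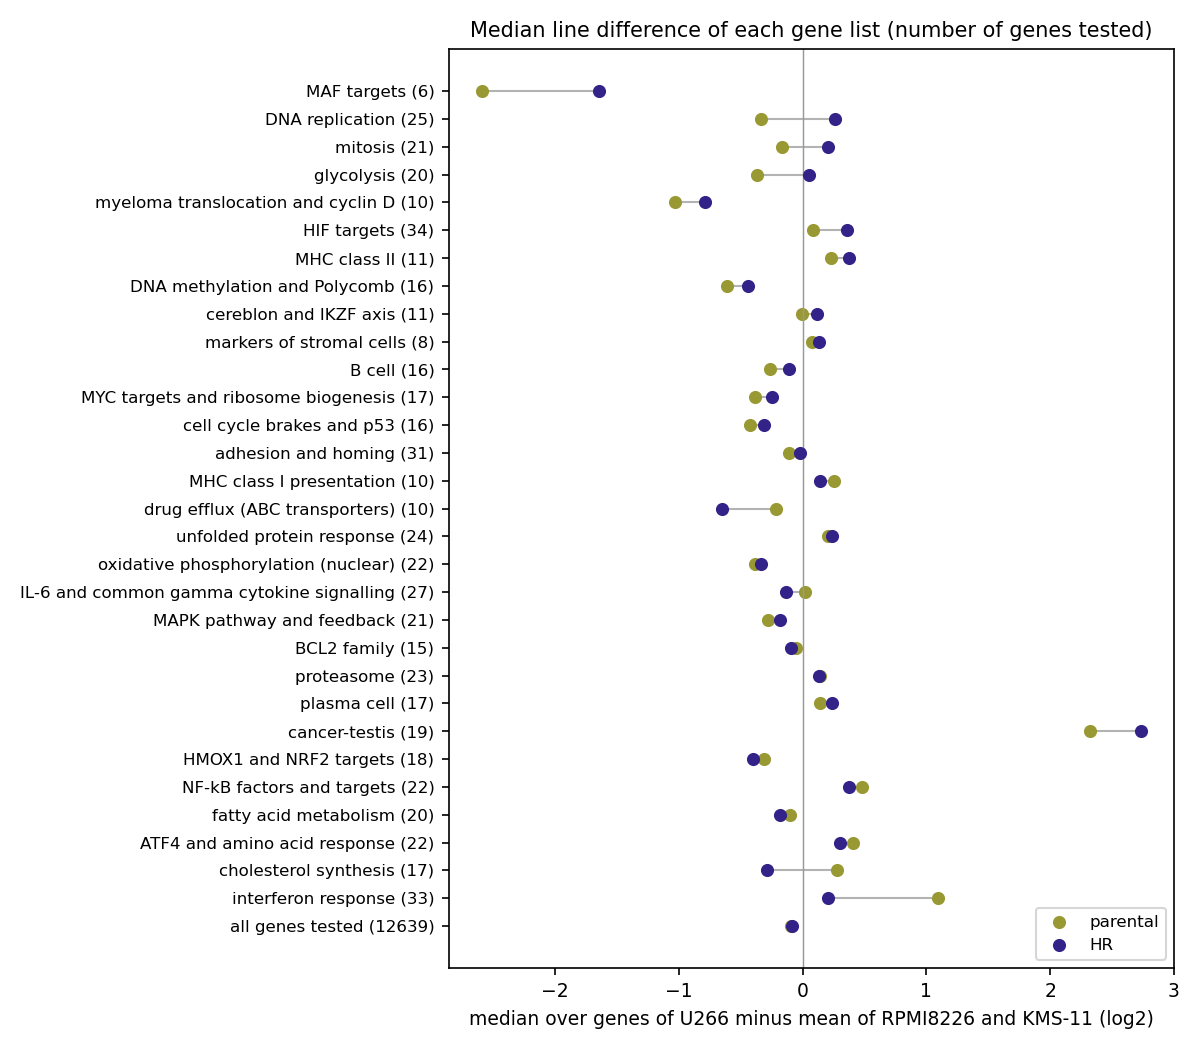
Median over the genes of each list of U266 minus the mean of RPMI8226 and KMS-11 (log2, x axis) in parental (olive) and HR (indigo) cells, for lists with at least 6 genes tested, ordered by the median interaction, with all genes tested at the bottom. Interferon and cholesterol medians move left from parental to HR cells, MAF target, DNA replication, mitosis and glycolysis medians move right, and the cancer-testis median stays far to the right.

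For 3 further lists, interaction counts stand beside the 13.2% called higher and 8.05% called lower over all genes tested. Of the 22 nuclear oxidative phosphorylation genes 13 were lower and 5 higher in U266-HR, with a median of -0.34 after -0.38, and the interaction was called higher in 2 and lower in 0. SDHA and NDUFA9, subunits of respiratory complexes II and I, differed by -1.22 and -1.24. Of the 17 MYC target and ribosome biogenesis genes 11 were lower and 4 higher, with a median of -0.25 after -0.38. Interactions were called higher in 3 and lower in 0, and 15 of the 17 had a smaller difference in HR cells. NOP2, a nucleolar methyltransferase, differed by -1.23, and BOP1, a ribosome assembly factor, lessened from -2.38 to -1.62. A second BOP1 probe set, nearly as bright, went from -1.90 to -1.74, an interaction of 0.16 against 0.76. Proteasome genes, whose product bortezomib inhibits, differed little, with a median of 0.13 and none at 2-fold against both lines, and the interaction was called higher in 1 and lower in 3 of 23.

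The unfolded protein response, which secretory cells use to match folding capacity to load, held 14 higher and 8 lower of 24. SEL1L, an adaptor of the degradation of misfolded proteins, read 11.26 and 11.25 in U266-HR, 8.59 and 8.89 in RPMI8226-HR and 9.67 and 9.68 in KMS-11-HR. Of the 22 ATF4 and amino acid response genes 12 were higher and 5 lower, and 6 lessened. PHGDH, the first enzyme of serine synthesis, read 10.47 and 10.45 in U266-HR, 7.79 and 8.22 in RPMI8226-HR and 8.37 and 8.25 in KMS-11-HR, and lessened from 2.76 to 2.30 as RPMI8226 rose by 1.43. Without any 1 of the 4 U266 arrays its interaction was not called (adjusted p = 0.064 to 0.075 in limma).

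Genes of DNA methylation and Polycomb were lower in U266-HR in 11 of 16 and higher in 3, with a median of -0.44 after -0.61. DNMT3B, a de novo methyltransferase, differed by -1.40. Of the 10 drug efflux transporters tested 5 were lower and 2 higher. ABCC4, an organic anion pump, read 4.79 and 4.54 in U266-HR, a mean of 9.05 in RPMI8226-HR and 8.31 and 8.25 in KMS-11-HR, and ABCG2, a multidrug pump, differed by -2.74, with neither interaction called. ABCB1, the best known multidrug pump, was below the filter level in all 12 arrays, at 4.11 to 4.46. Of the 18 HMOX1 and NRF2 target genes 12 were lower and 5 higher, with NQO1, a quinone reductase, at -1.51 before and after. CRBN, the target of lenalidomide, was higher by 0.99 after 1.05, and IKZF3, a substrate it degrades, differed by 0.12, which was not called.

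Fatty acid genes were lower in 10 of 20 and higher in 6. FASN, fatty acid synthase, widened from -1.16 to -1.69. Cell cycle brakes and p53 targets were lower in 8 of 16 and higher in 5, among them CDKN1B, the p27 inhibitor, at -1.14. MAPK pathway genes were lower in 13 of 21 and higher in 4, and DUSP6, an ERK phosphatase, widened from -1.12 to -2.12. All list counts are to be read against the shares of all genes tested. In the HR comparison 34.3% were called higher and 42.3% lower, and in parental cells 33.1% and 41.9%. The interaction was called higher in 13.2% and lower in 8.05%. From parental to HR cells 9.68% rose and 8.42% fell in U266, 10.7% and 15.3% in RPMI8226, and 2.44% and 5.83% in KMS-11. Of all genes 10.2% persisted, 5.64% lessened, 1.53% widened and 1.84% emerged. No list was tested.

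The line differences also varied along the genome. On chromosome 15, 218 of 395 genes tested were called higher in U266-HR (55.2%) and 91 lower (23.0%), with a median difference of 0.29, which was 0.31 in parental cells. Chromosome 14 had a median of 0.18. Chromosomes 7 and 16 had medians of -0.24, and on chromosome 16 57.0% of genes were called lower. Chromosomes 13 and 20 had the largest median interactions, 0.19 and 0.17. On chromosome 20 the interaction was called higher in 129 of 356 genes and lower in 38, and the median line difference went from -0.20 to -0.12. On chromosome 13 the counts were 62 and 8 of 215, and the median went from -0.22 to -0.08. Over all genes tested the interaction was called higher in 13.2% and lower in 8.05%. DNA copy number was not analysed here, and its part in these medians was not tested.

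**Figure D5:**
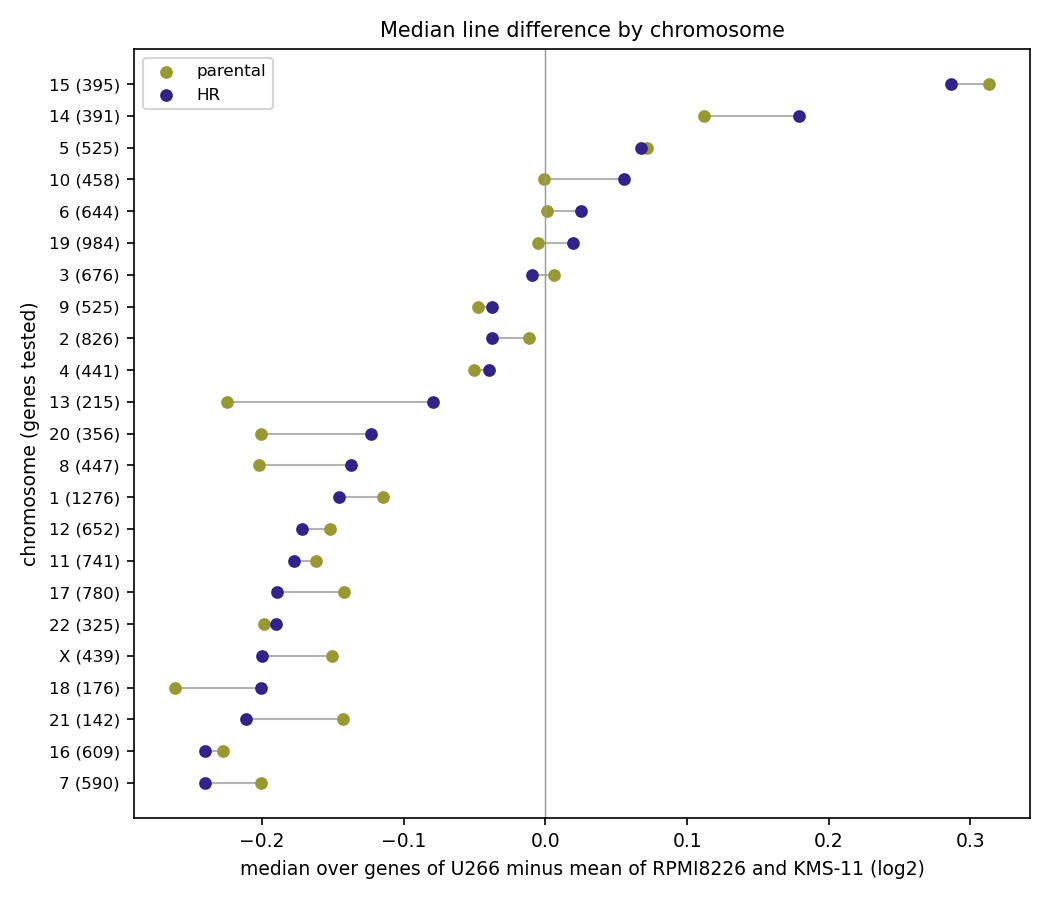
Median over the genes of each chromosome of U266 minus the mean of RPMI8226 and KMS-11 (log2, x axis) in parental (olive) and HR (indigo) cells, with the number of genes tested beside each chromosome, ordered by the HR median. Chromosomes 15 and 14 lie to the right and chromosomes 7 and 16 to the left, and chromosome 13 has the widest gap between the conditions.

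Most markers of T and NK cells and of myeloid cells were below the filter level in every HR array, while 4 to 6 of 16 stromal markers were above it. Of 14 T and NK cell markers 5 passed the filter, with 1 of them, CD8A, called lower in U266-HR and none higher, and their summed log2 value lay between 72.0 and 76.3. Of 11 myeloid markers 1 passed, and the sum lay between 55.0 and 57.5. Of 16 stromal markers 8 passed, with sums of 97.5 and 98.3 in U266-HR, 103.2 and 103.5 in RPMI8226-HR and 93.4 and 94.1 in KMS-11-HR. FN1, the fibronectin of extracellular matrix, carried much of that spread: it read 13.07 and 13.04 in RPMI8226-HR and at most 6.42 in the other HR arrays, and 12.67 and 12.65 in parental RPMI8226. THY1, also on the stromal list, rose by 2.37 in U266 and differed by 4.25 in HR cells. VIM, an intermediate filament protein, lessened from 1.67 to 1.07. CXCL12, a chemokine of marrow stroma, lessened from -2.35 to -1.34 as RPMI8226 fell by 1.90, and its change of 0.18 in U266 was not called. The part of stromal cells in these values was not tested. The defining markers CD3D, CD3E, CD14 and DCN were below the filter level in every group mean. Plasma cell genes were above it in 13 to 16 of 19 in each HR array.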

How the data were processed

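Per the labels, total RNA of each array was labelled with biotin and read on Affymetrix gene arrays, and the submitters' processing notes name Affymetrix Expression Console 1.3.0. The deposited values are log2 intensities per probe set. How background was corrected and arrays were scaled is not given in the sources used here, so their effect on small differences cannot be judged. Of 33297 probe sets, 19460 had 1 gene symbol in the platform annotation, 1754 had several and 12083 were unnamed. The brightest probe set was kept for each of 18417 genes, and 12639 genes above 6.27 in at least 2 arrays were tested. limma 3.58.1 in R 4.3.3 (lmFit, eBayes, two-sided) was fitted to 16 arrays as 8 groups, with the 4 arrays of IM-9, another line of the series, entering the spread, and was tested on simulated data. With 2 arrays per group, precision is limited by their number. Genes were named by rule: the largest HR differences, lessened and emerged genes, up to 4 per list by smallest p plus those that show a list's direction, and known myeloma genes. The comparison and the lists were chosen with earlier results of these data known. Lists were counted and not tested. Alternatives covered filters, probe sets, scaling, weights, spread, samples and the replicate unit.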

Additional observations from a re-analysis of the deposited data

Results flagged for a closer look

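The line difference of 24 named genes changed between parental and HR cells by the interaction test in limma, which is itself the test of a difference between conditions. Where U266 had been higher, the interaction (HR minus parental difference, log2) was -3.09 for PSTPIP2, -2.52 for SLCO2B1, -2.44 for IFIT1, -1.93 for CD48, -1.92 for ALLC and -1.88 for CHI3L1. Where U266 had been lower it was 3.60 for AK4, 3.05 for DNAJC15, 3.03 for LAPTM5, 2.78 for PMAIP1, 2.53 for IQGAP2 and 2.43 for HK2. On the second AK4 probe set it was 0.29. Among emerged differences it was 3.09 for IDO1, 3.02 for TENM3, 2.92 for ZNF729, 2.73 for MUSK, 2.72 for CNIH3 and 2.66 for CCN4, and -2.38 for PAGE1, -1.92 for CAPN6, -1.63 for IGFBP2, -1.49 for DNAH11, -1.43 for SLC2A3 and -1.41 for TEX9. These are the largest of their classes by the naming rule, and their sizes are therefore selected. Adjusted p-values in limma ran from 1.2e-10 for LAPTM5 to 6.0e-05 for IGFBP2. No group had the 4 arrays needed to look for an array far from the rest.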

How the results depend on the processing

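No result changed direction. With the line as the unit (1 mean per line, U266 against 2 references), the counts of HR differences, interactions, persisted, lessened and emerged genes were 0: the smallest adjusted p was 0.0975 for the HR difference and 0.0998 for the interaction, and 518 genes higher and 346 lower, and 524 and 291 for the interaction, had an unadjusted p under 0.05 in limma. The design has 3 lines, so it cannot say how U266 would compare with other myelomas. A stricter filter, which leaves 7325 genes, gave 726 higher HR differences and 816 persisted. Leaving out 1 array gave 1088 to 1122 higher and 823 to 857 lower HR differences, 1143 to 1690 higher and 668 to 1007 lower interactions, 1279 to 1403 persisted, 572 to 719 lessened and 199 to 249 emerged genes, with 668 lower interactions without U266 parental replicate 1. A second quantile normalization gave 1470 higher and 1255 lower interactions. The array number as a replicate block gave 1112 higher and 854 lower HR differences and changed no call of a named gene. The numbers do not pair the arrays: over 15 pairs of groups, deviations of same-numbered arrays correlated at -0.08 to 0.205, with 1 pair over 0.1.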
